A study of Mus musculus with 120 samples.

Results

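Livers of CC032 females that ate a high-fat, high-sucrose (HF/HS) diet are compared here with livers of CC032 females on the control diet. It rests on 6 of the 120 libraries of the series, chosen by their labels: 3 control libraries (CC032_F_Ctr) and 3 HF/HS libraries (CC032_F_HFD). CC032 is an inbred Collaborative Cross strain, a line whose genome is a fixed mosaic of several founder strains. All 6 libraries share that genome, and no transgene, deletion or drug is named for them. The HF/HS diet was eaten for 12 weeks and contained milkfat (42% of the calories), sucrose (more than 30%) and cholesterol (0.2%). The control diet was low in fat, with less sucrose and otherwise matched ingredients. Livers were flash frozen, and libraries were made from 500 ng of total RNA. The labels give neither the age of the mice, nor the time of day of collection, nor feeding before it, and do not state that each library is a different mouse. The p-values therefore reflect the spread among libraries, which may be technical. 2 further sets served for comparison: 6 libraries from CC032 males on both diets, and 40 libraries from females of 7 other strains (CC011, CC013, CC019, CC040, CC041, CC042 and CC043) on both diets.

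A liver that receives more fat than it burns or exports stores the excess as triglyceride in lipid droplets, which are coated by perilipins and enlarged by CIDE proteins. Fatty acids activate the nuclear receptor PPAR-alpha, which drives genes of fatty acid oxidation, while dietary cholesterol keeps the transcription factor SREBP2 inactive and so lowers the enzymes that make cholesterol. In fatty livers, macrophages that take up lipid and carry markers such as Trem2 and Gpnmb gather beside the resident Kupffer cells.

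Values are FPKM-like abundances that the authors rescaled so that the 75th percentile is near 10 in every library. Differences are HF/HS minus control on the log2(value + 1) scale, which understates changes of genes with low values, and are given with their standard error (SE). A gene is said to have risen or fallen only where limma's test gave an adjusted p under 0.05 over all genes tested. Of 11949 genes with a mean of at least 1, 536 rose (4.49%) and 447 fell (3.74%), 983 in all (8.23%). The 2 groups did not overlap at any of these 983 genes, while over all genes tested the HF/HS values lay wholly above the controls at 15.8% and wholly below at 17.3%. A rise of at least 1 on the log2 scale was seen at 109 called genes and a fall of at least 1 at 49, and the median difference over all genes was -0.01. On low values, where single reads can be told apart, the libraries had 0.71 to 1.12 times the depth of control 1. All 6 livers had the female marker Xist, which coats the silent X chromosome, at 32.9, 37.7 and 34.1 in the controls and 35.1, 28.5 and 37.9 on the HF/HS diet. Of 12 hepatocyte markers, 11 were tested, with a summed level of at least 49807 in every library. The other was Alb, which encodes albumin and was listed at 0 in all 6, as can happen where a transcript could not be estimated.

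The calls depended on single libraries. Their number was 839 without control 1, 146 without control 2, 142 without control 3, 216 without HF/HS 1, 428 without HF/HS 2 and 1200 without HF/HS 3. Of the 983 genes, 115 kept their call in each of these 6 fits, 75 that rose and 40 that fell. In the gene groups below, the calls that held in all 6 fits are therefore named, and every other call of a group was lost in at least 1 of them. The filter on low values was met only through 1 of the 2 groups at 342 of the genes tested, of which 64 rose and 9 fell, so those calls favour genes that differ. Among called genes named below, Adam11, Ang3, Ang4, Chil3, Ephb2, Fam83a, Gpnmb and H19 met it only through the HF/HS group. So did Itgax, Mmp12, Mthfd1l, Mup7, Nr1d1, Sox4, Sprr1a and Trem2. Hsd3b1, Hsd3b5 and Ly6f met it only through the controls. The first component of the 6 libraries (34.3% of the variance) separated the diets, and the second (21.7%) set control 1 and HF/HS 3 apart from the other four. Gene lists were written from general knowledge with earlier results of these data known, so each list is described by its counts and its median beside those of all genes.

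**Figure D1:**
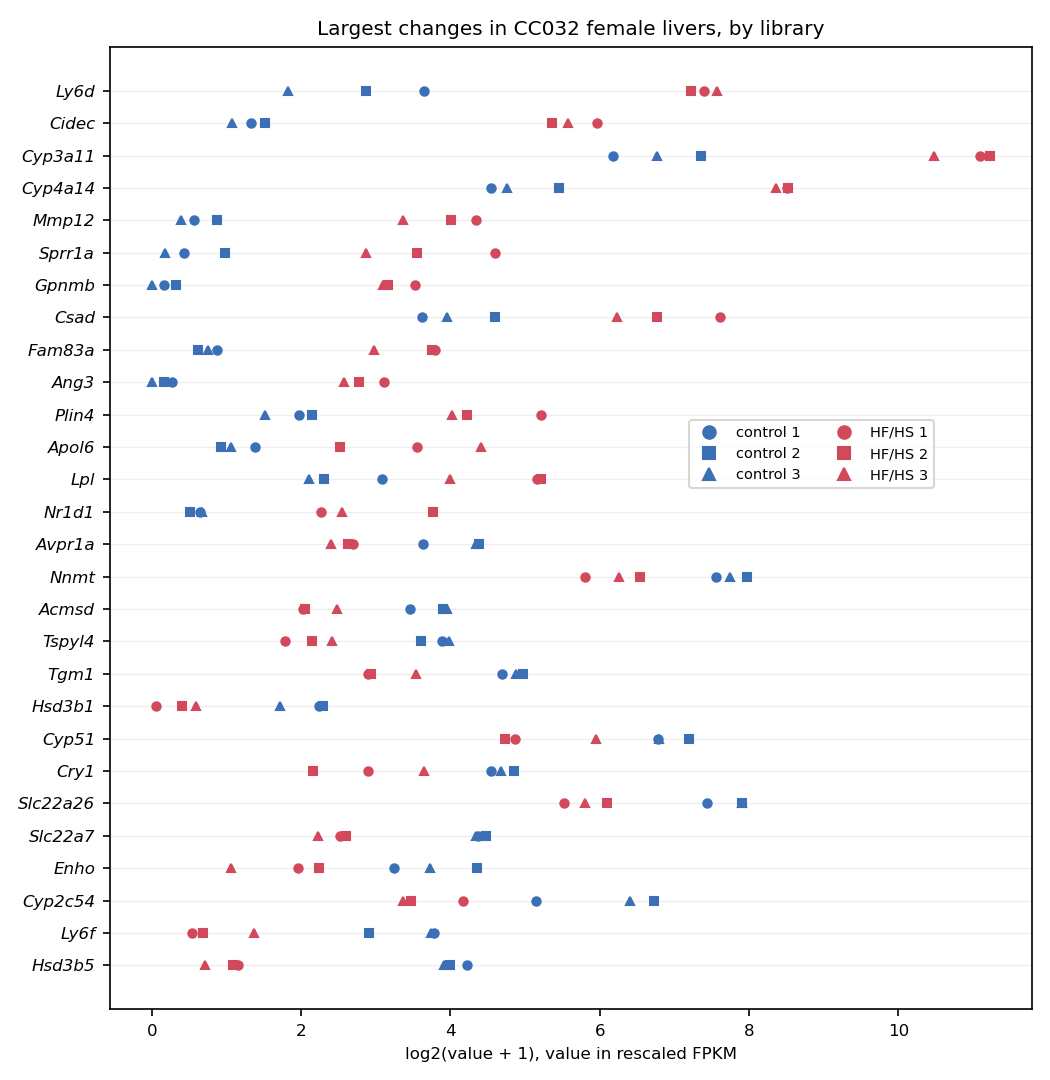
Values by library of 28 of the 30 genes with the largest rises and falls, as log2(value + 1) on the x axis, with control libraries in blue, HF/HS libraries in red and the library number as the symbol. The 2 groups of points are apart in every row, since only genes without overlap were chosen. Ly6d stands at the top with the largest rise (4.62) and Hsd3b5 at the bottom with the largest fall of those drawn (-3.06). Mup7, listed at 0 in all controls, is among those not drawn.

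Lipid droplet genes rose in part. Of the 23 tested genes of droplets and triglyceride storage, 9 rose and none fell, with a median of 0.37. Cidec (chr6:113424634-113435760), which fuses droplets into larger ones, had values of 1.504, 1.86 and 1.10 in the controls and 61.4, 40.1 and 46.8 on the HF/HS diet. Every HF/HS library lay far above the highest control, and the difference was 4.33 ± 0.18 (SE), adjusted p = 0.000233. Among the perilipins, the coat proteins of droplets, Plin2 had values of 343, 314 and 317 in the controls and 546, 592 and 544 on the HF/HS diet, a rise of 0.79 ± 0.08 (SE), adjusted p = 0.00423. Plin4 stood at 2.93, 3.42 and 1.87 in the controls and 35.97, 17.7 and 15.2 on the HF/HS diet, and HF/HS 1 was the highest of the 3. Plin4 rose by 2.60 ± 0.34 (SE), adjusted p = 0.0161. Plin5, a perilipin of tissues that burn fat, rose by 0.56 ± 0.09 (SE), adjusted p = 0.02, and Plin3 rose by 0.51 ± 0.11 (SE), adjusted p = 0.0395. Mogat1, which adds a fatty acid to monoacylglycerol on the way to triglyceride, had values of 3.13, 1.67 and 2.55 in the controls and 10.4, 9.22 and 15.1 on the HF/HS diet and rose by 1.86 ± 0.22 (SE), adjusted p = 0.0084. Pparg, a nuclear receptor of lipid storage, had values of 11.04, 6.83 and 6.95 in the controls and 28.1, 21.7 and 14.5 on the HF/HS diet, so that HF/HS 3 lay nearest to the controls. The rise of Pparg was 1.26 ± 0.28 (SE), adjusted p = 0.0488. Fitm2, a membrane protein of droplet formation, rose by 0.67 ± 0.11 (SE), adjusted p = 0.0176, and the droplet protein Hsd17b13 rose by 0.45 ± 0.09 (SE), adjusted p = 0.0289. The calls of Cidec and Plin2 held in all 6 fits with a library left out, and those of the other 7 were lost in at least 1, with adjusted p values up to 0.168.

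Genes of fatty acid uptake and binding rose in part: 5 of 11 tested rose, none fell, and the median was 0.52. The summed level of the whole list was 19768 to 24074 in controls and 16405 to 22070 on the HF/HS diet, so the groups overlapped. Cd36, a fatty acid receptor of the cell surface, had values of 145, 126 and 139 in the controls and 211, 215 and 248.9 on the HF/HS diet, with the lowest HF/HS library above the highest control, and rose by 0.72 ± 0.09 (SE), adjusted p = 0.0103. The fatty acid binding proteins Fabp2 and Fabp4 rose by 0.52 ± 0.07 (SE), adjusted p = 0.0104 and by 0.76 ± 0.16 (SE), adjusted p = 0.037. Slc27a4, a fatty acid transport protein, rose by 0.62 ± 0.13 (SE), adjusted p = 0.036. Lpl, the lipase that frees fatty acids from circulating triglyceride, had values of 7.46, 3.95 and 3.32 in the controls and 34.7, 36.2 and 14.9 on the HF/HS diet. HF/HS 3 was well below the other two, and Lpl rose by 2.29 ± 0.43 (SE), adjusted p = 0.0389. Without control 2 or without control 3 none of these 5 calls held.

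PPAR-alpha targets and peroxisomal oxidation genes formed the list with the most calls: 12 of 26 tested rose, none fell, and the median was 0.46. Cyp4a14 (chr4:115486200-115496141), which oxidises the far end of fatty acids, had values of 22.4, 42.7 and 26.04 in the controls and 363, 366 and 329 on the HF/HS diet. The 3 HF/HS libraries were close to each other and far above every control. The difference was 3.55 ± 0.23 (SE), adjusted p = 0.00175. Its relative Cyp4a10 was at 300.4, 353 and 292 in the controls and 476, 646 and 521 on the HF/HS diet and rose by 0.79 ± 0.13 (SE), adjusted p = 0.021. The peroxisomal thiolases, which carry out the last step of chain shortening, both rose. Acaa1b had values of 882, 717 and 921 in the controls and 1967, 1811 and 2053 on the HF/HS diet, a difference of 1.22 ± 0.12 (SE), adjusted p = 0.00411, and Acaa1a rose by 0.81 ± 0.08 (SE), adjusted p = 0.00455. Vnn1, which makes pantothenate from pantetheine, had values of 69.3, 46.0 and 52.9 in the controls and 132, 128 and 129 on the HF/HS diet and rose by 1.22 ± 0.14 (SE), adjusted p = 0.00662. Pex11a, a protein of peroxisome division, rose by 1.02 ± 0.12 (SE), adjusted p = 0.00807. Ppara itself rose (41.5, 45.0 and 41.5 in the controls and 66.8, 64.8 and 54.3 on the HF/HS diet, 0.52 ± 0.09 (SE), adjusted p = 0.0244), as did Acot2, Crat, Aldh3a2, Ehhadh and Hsd17b4, by 0.36 to 1.07. The calls of Acaa1a, Acaa1b, Cyp4a14, Pex11a and Vnn1 held in all 6 fits. Cyp4a10 and Cyp4a14 are close relatives, and how reads were divided between such genes is not given in the sources used here.

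In mitochondria, 3 of 18 tested oxidation genes rose and none fell, with a median of 0.14. Eci1, an isomerase for unsaturated fatty acids, rose by 0.41 ± 0.08 (SE), adjusted p = 0.0316. Slc25a20, which carries acylcarnitines into mitochondria, rose by 0.39 ± 0.08 (SE), adjusted p = 0.0348, and Acadm, a dehydrogenase for medium chains, rose by 0.56 ± 0.12 (SE), adjusted p = 0.0353. Cpt1a, the gate of mitochondrial uptake, had values of 92.6, 115 and 102 in the controls and 149, 251 and 149.6 on the HF/HS diet and missed the threshold (0.78 ± 0.21 (SE), adjusted p = 0.0734). None of these 3 calls held in all 6 fits. Of 20 tested genes of fatty acid synthesis, 1 rose and none fell, while the median was -0.42. The 1 that rose was Elovl3, an elongase of long chains, with values of 8.89, 7.17 and 6.44 in the controls and 48.4, 23.5 and 49.6 on the HF/HS diet and a difference of 2.23 ± 0.30 (SE), adjusted p = 0.0168. Its call was lost without control 2, without control 3 and without HF/HS 1. Mlxipl, the carbohydrate-responsive regulator of this pathway, had values of 84.1, 93.5 and 84.0 in the controls and 56.9, 42.0003 and 71.8 on the HF/HS diet (-0.64 ± 0.18 (SE), adjusted p = 0.0802). None of 21 tested respiratory chain subunits passed the test, with a median of 0.01, and none of 18 genes of glycolysis and fructose use did, with a median of -0.01.

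**Figure D2:**
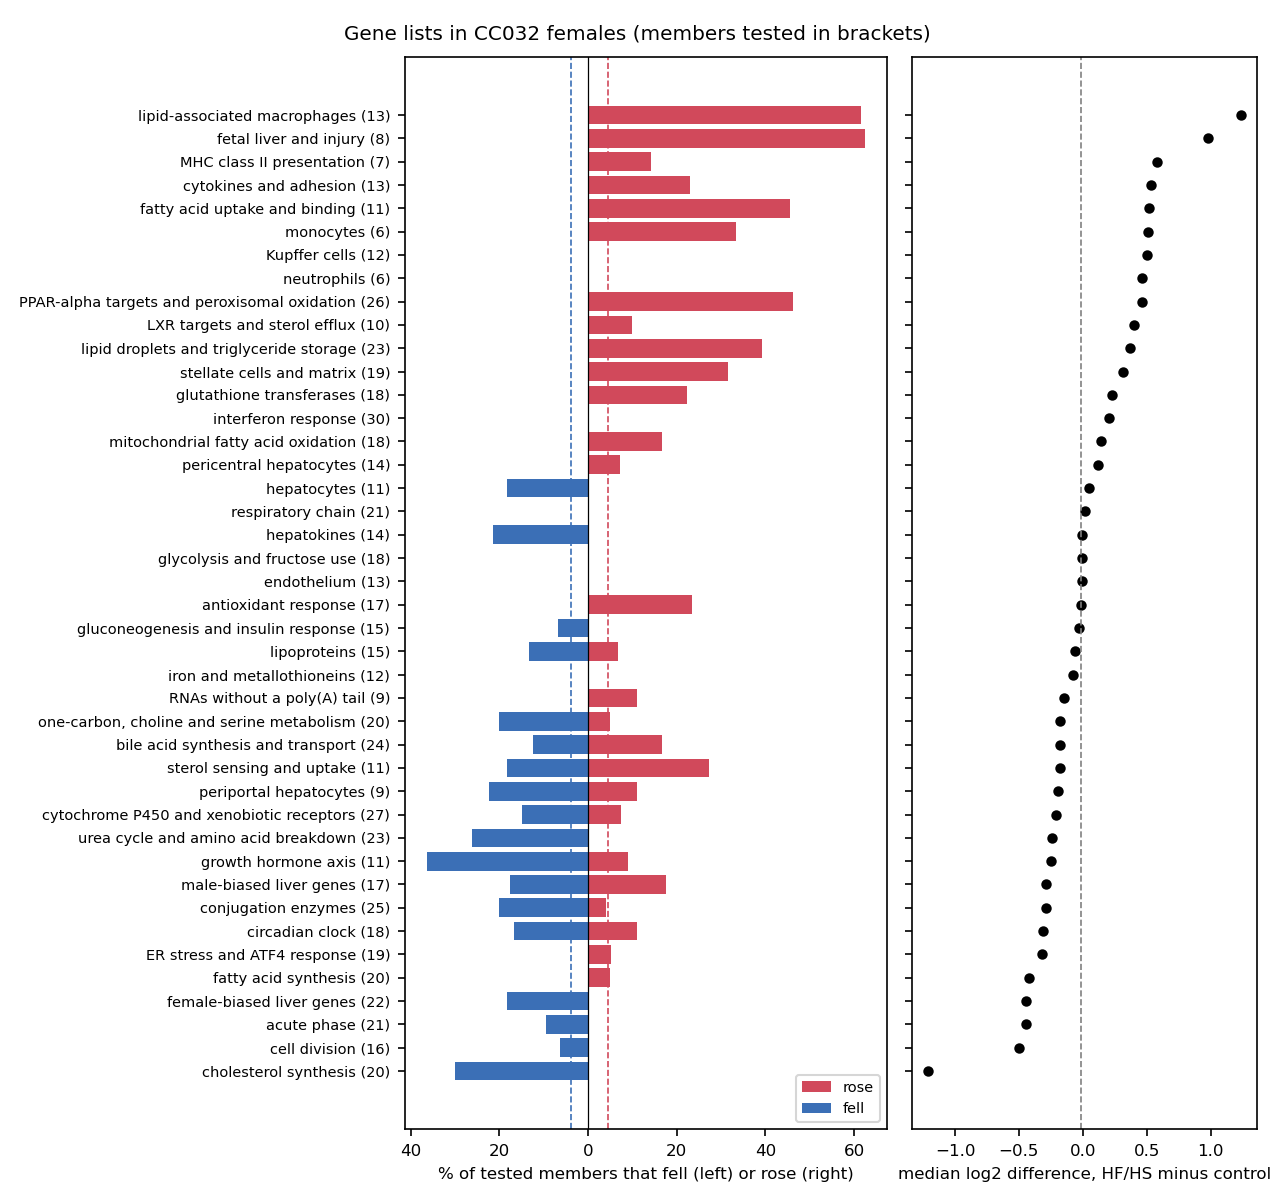
Gene lists with at least 6 tested members (number in brackets): on the left the percentage of tested members that rose (red, to the right) or fell (blue, to the left), with dashed lines at the 4.49% and 3.74% of all genes that rose or fell, and on the right the median log2 difference, with a dashed line at -0.01, the median over all genes. Lipid-associated macrophage genes had the highest median, 1.24, and cholesterol synthesis genes the lowest, -1.21.

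Cholesterol synthesis genes were lower on the HF/HS diet. Of the 20 tested, 6 fell and none rose, the median was -1.21, and 17 were lower in every HF/HS library than in every control. Over all genes tested, 17.3% lay wholly below the controls. The 6 act from the phosphorylation of mevalonate onwards. Mvk, mevalonate kinase, had values of 19.2, 27.3 and 20.5 in the controls and 10.2, 12.2 and 12.6 on the HF/HS diet and fell by 0.87 ± 0.14 (SE; adjusted p = 0.0194). Cyp51 (chr5:4080674-4104697), the lanosterol demethylase, had values of 109, 146 and 110.3 in the controls and 28.2, 25.7 and 60.7 on the HF/HS diet, and HF/HS 3 was well above the other two. The difference of Cyp51 was -1.75 ± 0.35 (SE), adjusted p = 0.0413. Tm7sf2, a sterol reductase, had values of 258, 257 and 205 in the controls and 95.8, 90.3 and 165 on the HF/HS diet, again with HF/HS 3 the nearest to the controls, and a difference of -1.08 ± 0.24 (SE), adjusted p = 0.0486. Msmo1, a sterol methyl oxidase, had values of 108, 172 and 123 in the controls and 45.4, 39.9 and 71.8 on the HF/HS diet and a difference of -1.36 ± 0.26 (SE), adjusted p = 0.0358. Hsd17b7, a sterol ketoreductase, differed by -0.81 ± 0.12 (SE), adjusted p = 0.0132, and Ebp, a sterol isomerase, by -0.69 ± 0.14 (SE), adjusted p = 0.0349. Sqle, squalene epoxidase, did not pass the test, with values of 123, 121 and 103.5 in the controls and 24.1, 14.3 and 73.7 on the HF/HS diet (-1.93 ± 0.62 (SE), adjusted p = 0.13). At this gene the HF/HS libraries differed among themselves more than the controls did. None of the 6 calls held in all 6 fits with a library left out: none was left without control 3 or without HF/HS 1, and all 6 were held without HF/HS 3.

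**Figure D3:**
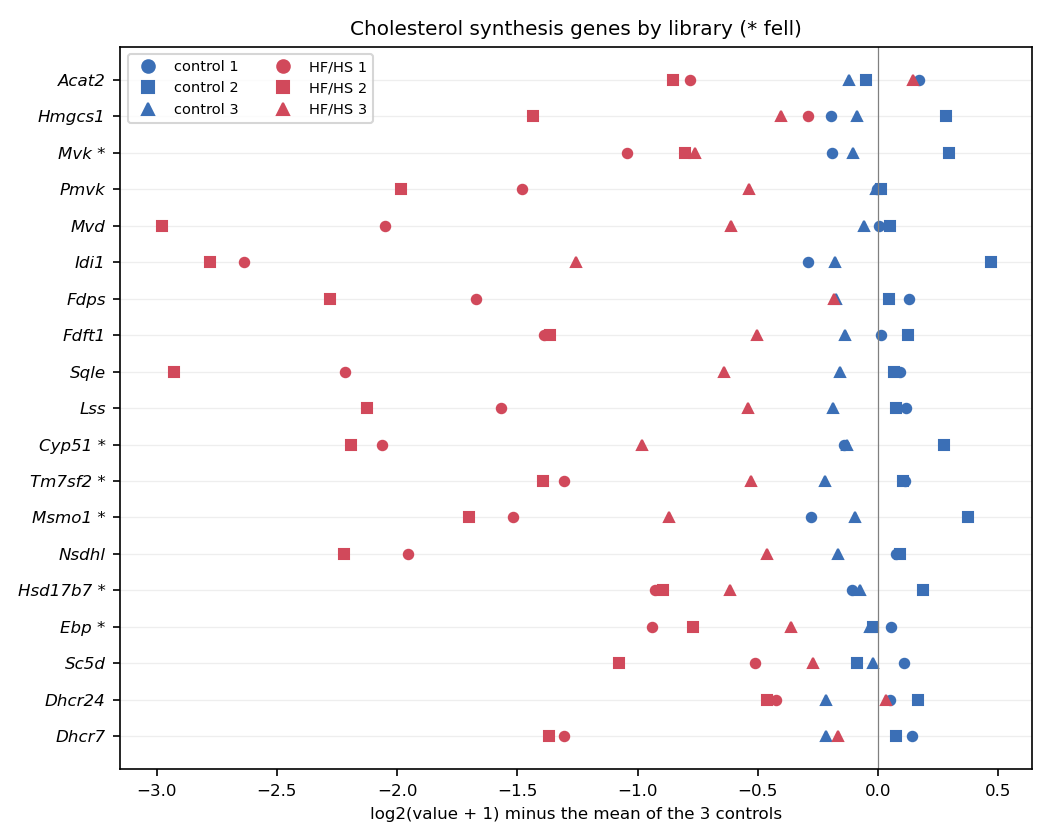
Cholesterol synthesis genes (19 of the 20 tested) in pathway order, each library as log2(value + 1) minus the mean of the 3 controls, with controls in blue, HF/HS in red, the library number as the symbol and a star at the 6 genes that fell. HF/HS 3 (triangles) was the nearest of the 3 HF/HS libraries to the mean of the controls at every gene drawn but Hmgcs1, and for Cyp51 it had a value of 60.7 against 28.2 and 25.7.

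The promoters of 4 of these genes are shown because genes of the pathway moved together and their known control runs through elements near the start site, where SREBP2 acts beside the factor NF-Y, which binds the CCAAT box. The sequences are those of RefSeq on GRCm38.p6 (mm10), the reference genome and not that of CC032, from 250 bases before to 50 bases after the start, read in the direction of the gene. Capitals mark CCAAT on the strand of the gene or ATTGG where the box lies on the other strand. The windows are chr5:4104648-4104947 (minus strand) for Cyp51, chr8:64733529-64733828 (minus strand) for Msmo1, chr1:169969156-169969455 (minus strand) for Hsd17b7 and chr5:114444019-114444318 (plus strand) for Mvk.
Cyp51: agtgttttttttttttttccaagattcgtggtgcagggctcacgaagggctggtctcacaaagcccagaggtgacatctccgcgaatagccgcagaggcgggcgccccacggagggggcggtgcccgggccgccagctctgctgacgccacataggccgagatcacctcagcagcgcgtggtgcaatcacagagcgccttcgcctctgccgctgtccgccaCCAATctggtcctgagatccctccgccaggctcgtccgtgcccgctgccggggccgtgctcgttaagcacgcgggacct
Msmo1: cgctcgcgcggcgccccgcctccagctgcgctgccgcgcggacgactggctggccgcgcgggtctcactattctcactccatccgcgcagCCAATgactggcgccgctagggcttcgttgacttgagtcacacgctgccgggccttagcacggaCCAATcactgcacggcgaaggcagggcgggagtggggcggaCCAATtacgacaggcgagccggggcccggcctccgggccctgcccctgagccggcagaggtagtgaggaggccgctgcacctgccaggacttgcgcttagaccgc
Hsd17b7: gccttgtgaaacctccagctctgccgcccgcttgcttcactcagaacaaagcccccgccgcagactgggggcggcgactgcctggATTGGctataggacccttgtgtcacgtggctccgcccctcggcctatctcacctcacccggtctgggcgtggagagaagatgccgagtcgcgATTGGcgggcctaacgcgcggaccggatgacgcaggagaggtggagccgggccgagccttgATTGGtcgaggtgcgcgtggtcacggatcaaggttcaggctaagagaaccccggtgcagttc
Mvk: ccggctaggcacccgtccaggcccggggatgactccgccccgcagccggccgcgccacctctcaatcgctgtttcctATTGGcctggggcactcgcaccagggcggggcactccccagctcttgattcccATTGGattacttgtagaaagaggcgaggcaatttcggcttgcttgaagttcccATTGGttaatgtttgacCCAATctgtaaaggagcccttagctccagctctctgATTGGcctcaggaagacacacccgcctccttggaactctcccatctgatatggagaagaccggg
The box starts 29 bases before the start site in Cyp51, and there are 3 matches in Msmo1, 3 in Hsd17b7 and 5 in Mvk. On both strands together, CCAAT was found in the promoters of all 6 genes that fell and in 14 of the 15 tested cholesterol synthesis genes with a promoter in the RefSeq table. It was found in 41.1% of all 27018 promoters of the same length and in 42.9% of the 8909 tested genes with one. Of all called genes with a promoter, 41.1% of those that rose and 49.6% of those that fell held it. The sterol element core TCACNCCAC was found in 1 of the 15, in none of the 6 that fell and in 1.44% of all promoters. Among the same 15, an antioxidant element (TGACNNNGC) was found in 4, of which 2 fell, and in 14.0% of all promoters, and the DR1 repeat of nuclear receptors in none and in 0.048%. A match of letters is a description and no evidence of binding.

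Genes that sense and take up sterols moved in both directions, with 3 of 11 tested up and 2 down. Insig1, which holds SREBP proteins in the endoplasmic reticulum and is itself their target, had values of 498, 536 and 536 in the controls and 274, 172 and 337 on the HF/HS diet and a difference of -1.05 ± 0.23 (SE), adjusted p = 0.0461. Stard4, a carrier of cholesterol between membranes, differed by -0.97 ± 0.19 (SE), adjusted p = 0.0343. Soat2, which esterifies cholesterol, had values of 12.9, 12.4 and 12.6 in the controls and 20.9, 21.9 and 19.4 on the HF/HS diet, with narrow groups, and rose by 0.67 ± 0.07 (SE), adjusted p = 0.00456. Mylip, which marks the LDL receptor for breakdown, rose by 0.65 ± 0.11 (SE), adjusted p = 0.0227, and Npc1, which moves cholesterol out of lysosomes, rose by 0.36 ± 0.09 (SE), adjusted p = 0.0491. The call of Soat2 held in all 6 fits. Among 10 tested targets of the oxysterol receptor LXR, Abcg1, a sterol exporter, rose by 0.90 ± 0.13 (SE), adjusted p = 0.0122, none fell, and the median was 0.40. The call of Abcg1 did not hold in all 6 fits.

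Of 15 tested lipoprotein genes, 1 rose and 2 fell, with a median of -0.07. Apoc2, the activator of lipoprotein lipase, had values of 702, 719 and 689 in the controls and 1192, 1114 and 1158 on the HF/HS diet and rose by 0.71 ± 0.07 (SE), adjusted p = 0.00459. Apom, a small apolipoprotein of HDL, had values of 482, 534 and 527 in the controls and 293, 282 and 293 on the HF/HS diet, the 3 HF/HS libraries within a few percent of each other, and a difference of -0.83 ± 0.07 (SE), adjusted p = 0.00323. Both calls held in all 6 fits. Lcat, which esterifies cholesterol in HDL, fell with a difference of -0.30 ± 0.07 (SE), adjusted p = 0.0486, and its call held in none of the 6. Of 24 tested genes of bile acid synthesis and transport, 4 rose and 3 fell. Cyp8b1, which makes cholic acid, had values of 267, 270.5 and 239.5 in the controls and 151, 169 and 143 on the HF/HS diet and fell (-0.74 ± 0.09 (SE), adjusted p = 0.00793), a call held in all 6 fits. Cyp7b1, of the second route of synthesis, was at 37.4, 48.1 and 48.5 in the controls and 20.5, 24.7 and 16.4 on the HF/HS diet and fell (-1.09 ± 0.17 (SE), adjusted p = 0.0166). Slc10a1, the main bile acid importer, fell too (-0.54 ± 0.13 (SE), adjusted p = 0.0473). The genes that rose export bile acids or phospholipid: Abcc3 (1.28 ± 0.21 (SE), adjusted p = 0.0242), Abcc4 (0.70 ± 0.09 (SE), adjusted p = 0.0114), Abcb4 (0.46 ± 0.09 (SE), adjusted p = 0.0325) and Abcc2 (0.32 ± 0.07 (SE), adjusted p = 0.0486). Abcc3 had values of 38.5, 59.8 and 58.5 in the controls and 159, 118.4 and 107 on the HF/HS diet, so that every HF/HS library lay above every control. Cyp7a1, the enzyme that starts the main route, had values of 52.0, 63.4 and 53.0 in the controls and 30.1, 138 and 63.2 on the HF/HS diet (0.20 ± 0.57 (SE), adjusted p = 0.86).

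Cytochrome P450 genes had large changes in both directions, 2 up and 4 down of 27 tested. Cyp3a11 (chr5:145854607-145879854), the main drug-metabolising P450 of mouse liver, had values of 71.7, 162.5 and 108 in the controls and 2178, 2399 and 1429 on the HF/HS diet. Its groups lay far apart, and the difference was 4.17 ± 0.34 (SE), adjusted p = 0.00448. Its neighbour Cyp3a44, which is higher in females, went the other way, with values of 575, 613 and 645 in the controls and 223, 326 and 253 on the HF/HS diet and a difference of -1.21 ± 0.14 (SE), adjusted p = 0.00694. Both calls held in all 6 fits. Cyp2c54 had values of 34.6, 104.5 and 84.0 in the controls and 17.04, 10.1 and 9.29 on the HF/HS diet and fell (-2.42 ± 0.48 (SE), adjusted p = 0.046), a call that held in 1 of the 6 fits, that without control 1. Cyp2c55 rose (1.07 ± 0.19 (SE), adjusted p = 0.025), while Cyp2c40 (-0.80 ± 0.16 (SE), adjusted p = 0.0316) and Cyp2a5 (-0.69 ± 0.16 (SE), adjusted p = 0.0446) fell. Members of the Cyp2c and Cyp3a families are similar in sequence, so their separate values are less certain. Among 25 tested conjugation and flavin monooxygenase genes, 1 rose and 5 fell, with a median of -0.29. Among them, Sult5a1 (-1.10 ± 0.15 (SE), adjusted p = 0.0105), Fmo1 (-0.56 ± 0.10 (SE), adjusted p = 0.0225), Ugt2a3 (-0.37 ± 0.08 (SE), adjusted p = 0.0389) and Ugt2b34 (-0.35 ± 0.08 (SE), adjusted p = 0.0404) fell, and the carboxylesterase Ces1f rose (0.36 ± 0.08 (SE), adjusted p = 0.0445). No call of this list held in all 6 fits.

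Of 18 tested glutathione transferases, which couple glutathione to reactive compounds, 4 rose and none fell. Gstm3 had values of 29.9, 21.9 and 27.3 in the controls and 84.5, 81.0 and 117.95 on the HF/HS diet, all HF/HS libraries above all controls, and rose by 1.79 ± 0.17 (SE), adjusted p = 0.00455. Gstm1 had values of 489.9, 419.8 and 555 in the controls and 981, 930.5 and 1145 on the HF/HS diet and rose by 1.06 ± 0.13 (SE), adjusted p = 0.00802. Gstm4 and Mgst3 rose by 0.81 ± 0.16 (SE), adjusted p = 0.0326 and by 0.49 ± 0.09 (SE), adjusted p = 0.0231. The calls of Gstm1 and Gstm3, 2 similar genes of 1 cluster, held in all 6 fits. Of 17 tested antioxidant genes 4 rose and none fell, while the median was -0.01. Srxn1, which repairs oxidised peroxiredoxins, was at 18.1, 16.8 and 17.7 in the controls and 41.1, 37.4 and 27.5 on the HF/HS diet and rose by 0.95 ± 0.14 (SE), adjusted p = 0.0151. Gpx4, which reduces lipid peroxides, rose by 0.48 ± 0.08 (SE), adjusted p = 0.021, Gclc, which makes the first bond of glutathione, by 0.84 ± 0.19 (SE), adjusted p = 0.0483, and Gpx3, a secreted peroxidase, by 0.70 ± 0.16 (SE), adjusted p = 0.0431. None of these 4 calls held in all 6 fits.

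Genes of amino acid breakdown fell in part. Of 23 tested genes of the urea cycle and amino acid breakdown, 6 fell and none rose, with a median of -0.24. Cps1, which starts the urea cycle, had values of 1591, 2061 and 2030.3 in the controls and 956, 1085 and 1201 on the HF/HS diet and a difference of -0.81 ± 0.14 (SE), adjusted p = 0.021. Asl, which splits argininosuccinate later in the cycle, had values of 463, 548 and 533 in the controls and 233, 300.3 and 326 on the HF/HS diet and a difference of -0.85 ± 0.14 (SE), adjusted p = 0.0184. Gls2, the liver glutaminase, was at 194, 202 and 194 in the controls and 59.6, 70.4 and 116 on the HF/HS diet, with HF/HS 3 nearest to the controls, and differed by -1.31 ± 0.23 (SE), adjusted p = 0.0295. Tat (-0.53 ± 0.10 (SE), adjusted p = 0.0298) and Hpd (-0.50 ± 0.11 (SE), adjusted p = 0.0355), which break down tyrosine, fell as well. In one-carbon and choline metabolism, 4 of 20 tested fell and 1 rose. Ahcy, which clears S-adenosylhomocysteine, was at 595, 697 and 735 in the controls and 349.7, 365 and 478 on the HF/HS diet and fell (-0.77 ± 0.14 (SE), adjusted p = 0.0262). Gnmt (-0.62 ± 0.14 (SE), adjusted p = 0.0472), Pemt (-0.40 ± 0.08 (SE), adjusted p = 0.0353) and Mthfd1 (-0.34 ± 0.08 (SE), adjusted p = 0.0413) fell, and the mitochondrial Mthfd1l rose (0.64 ± 0.12 (SE), adjusted p = 0.0298). Of 15 tested genes of glucose production and insulin response, 1 passed: Irs2, an adaptor of the insulin receptor, fell (-0.73 ± 0.16 (SE), adjusted p = 0.0412). None of the calls in these lists held in all 6 fits. A pair of other falls touched nicotinamide metabolism. Acmsd, which diverts tryptophan breakdown from NAD, was at 10.02, 13.95 and 14.5 in the controls and 3.08, 3.13 and 4.58 on the HF/HS diet (-1.59 ± 0.18 (SE), adjusted p = 0.00589), and Nnmt, which methylates nicotinamide, at 187, 250.3 and 214 in the controls and 54.6, 92.2 and 75.5 on the HF/HS diet (-1.56 ± 0.20 (SE), adjusted p = 0.0118). The call of Acmsd held in all 6 fits, and that of Nnmt was lost without control 2 or control 3.

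The growth hormone axis and genes that differ between the sexes in mouse liver were lower in part. Of 11 tested genes of the axis, 4 fell and 1 rose. Igf1, the circulating growth factor, had values of 334, 366 and 349.8 in the controls and 239, 233 and 244 on the HF/HS diet and fell (-0.55 ± 0.07 (SE), adjusted p = 0.00905). Its carrier Igfals was at 160.2, 189.8 and 176 in the controls and 77.6, 119.9 and 99.1 on the HF/HS diet and fell (-0.84 ± 0.16 (SE), adjusted p = 0.0288). Onecut1, a transcription factor that is higher in female liver, was at 19.97, 17.9 and 14.7 in the controls and 6.19, 5.54 and 8.62 on the HF/HS diet and fell (-1.26 ± 0.17 (SE), adjusted p = 0.0118). Socs2, a feedback inhibitor of growth hormone signalling, was at 37.7, 67.6 and 53.6 in the controls and 11.8, 23.2 and 20.4 on the HF/HS diet and fell (-1.48 ± 0.31 (SE), adjusted p = 0.0461), and Stat5a rose (0.47 ± 0.10 (SE), adjusted p = 0.0345). None of these calls held in all 6 fits. Of 22 tested genes known as higher in females, 4 fell and none rose, with a median of -0.44. Cyp3a44, Slc22a26 and Hao2 were among those that fell. Slc22a26, an organic anion transporter, had values of 172, 239 and 238 in the controls and 44.7, 67.3 and 55.1 on the HF/HS diet, the groups far apart, and a difference of -1.94 ± 0.18 (SE), adjusted p = 0.00449. Hao2, a peroxisomal oxidase, differed by -0.76 ± 0.15 (SE), adjusted p = 0.0307. The calls of Cyp3a44 and Slc22a26 held in all 6 fits. Of 17 tested genes known as higher in males, 3 rose and 3 fell. Hsd3b5, a steroid reductase, had values of 17.6, 14.95 and 14.1 in the controls and 1.23, 1.13 and 0.633 on the HF/HS diet, all HF/HS values far below all controls, and fell (-3.06 ± 0.14 (SE), adjusted p = 0.000239). Its relative Hsd3b1 was at 3.71, 3.92 and 2.28 in the controls and 0.0407, 0.325 and 0.506 on the HF/HS diet and fell (-1.73 ± 0.20 (SE), adjusted p = 0.00664). Both calls held in all 6 fits. The complement gene C6 rose (0.59 ± 0.07 (SE), adjusted p = 0.0084) and Mup21 fell (-0.92 ± 0.21 (SE), adjusted p = 0.0487). Mup21 belongs to a cluster of near-identical genes, so its separate value is less certain. Elovl3 and Cyp7b1, given above, belong to this list too. The sixth call was Mup7, which was listed at 0 in all 3 controls and at 711, 829.6 and 609 on the HF/HS diet, a pattern for which no fold is given although the call held in all 6 fits.

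Other large changes fell outside these pathways. Ly6d (chr15:74762056-74763567), a small surface protein better known from lymphocytes and epithelia, had values of 11.5, 6.31 and 2.55 in the controls and 168, 148 and 190.0 on the HF/HS diet, with the controls spread and every HF/HS library far above them, and rose by 4.62 ± 0.47 (SE), adjusted p = 0.0118. Ly6f, of the same gene cluster, moved the other way, with values of 12.7, 6.51 and 12.4 in the controls and 0.458, 0.605 and 1.59 on the HF/HS diet and a difference of -2.61 ± 0.31 (SE), adjusted p = 0.011. Csad, which makes taurine from cysteine, was at 11.3, 23.3 and 14.5 in the controls and 194, 108 and 74.3 on the HF/HS diet and rose by 2.81 ± 0.43 (SE), adjusted p = 0.0275. Sprr1a, a cornified envelope protein of skin, was at 0.354, 0.971 and 0.126 in the controls and 23.1, 10.8 and 6.28 on the HF/HS diet and rose by 3.14 ± 0.47 (SE), adjusted p = 0.0235. Fam83a was at 0.831, 0.533 and 0.688 in the controls and 12.9, 12.5 and 6.87 on the HF/HS diet and rose by 2.76 ± 0.22 (SE), adjusted p = 0.00306. Ang3, a secreted ribonuclease of the angiogenin family, was at 0.206, 0.124 and 0 in the controls and 7.62, 5.88 and 4.98 on the HF/HS diet and rose by 2.68 ± 0.15 (SE), adjusted p = 0.000583. Apol6 varied widely on the HF/HS diet, with values of 1.60, 0.907 and 1.09 in the controls and 10.8, 4.73 and 20.3 on the HF/HS diet, and rose by 2.37 ± 0.48 (SE), adjusted p = 0.0444. Among the falls, Slc22a7, an organic anion transporter, was at 19.7, 21.2 and 19.3 in the controls and 4.73, 5.04 and 3.68 on the HF/HS diet, with narrow groups (-1.95 ± 0.11 (SE), adjusted p = 0.00053). Tgm1, a transglutaminase, was at 24.8, 30.4 and 28.3 in the controls and 6.47, 6.62 and 10.6 on the HF/HS diet (-1.72 ± 0.18 (SE), adjusted p = 0.00578). Tspyl4 was at 13.8, 11.1 and 14.8 in the controls and 2.45, 3.42 and 4.31 on the HF/HS diet (-1.71 ± 0.17 (SE), adjusted p = 0.00472). Avpr1a, a vasopressin receptor of hepatocytes, was at 11.5, 19.9 and 19.3 in the controls and 5.50, 5.18 and 4.27 on the HF/HS diet (-1.55 ± 0.21 (SE), adjusted p = 0.0136). The calls of Fam83a, Ang3, Slc22a7, Tgm1 and Tspyl4 held in all 6 fits with a library left out. That of Ly6f was lost without control 3. The call of Ly6d was lost without control 2, HF/HS 1 or HF/HS 2, and that of Avpr1a without control 2, control 3 or HF/HS 1. Csad and Sprr1a kept theirs only without HF/HS 1 or HF/HS 3. Apol6 kept its call only without HF/HS 2 or HF/HS 3. Sprr1a, Fam83a and Ang3 met the filter on low values only through the HF/HS group, and Ly6f only through the controls. The tests of these genes therefore favour a difference.

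Of 14 tested hepatokines, proteins that the liver sends to other organs, 3 fell and none rose. Enho, which encodes adropin, was at 8.51, 19.6 and 12.2 in the controls and 2.88, 3.73 and 1.09 on the HF/HS diet (-2.02 ± 0.41 (SE), adjusted p = 0.0428). Inhba, a subunit of activin, was at 14.1, 12.2 and 10.6 in the controls and 5.17, 3.30 and 3.92 on the HF/HS diet (-1.38 ± 0.15 (SE), adjusted p = 0.00578), and Fetub differed by -0.68 ± 0.16 (SE), adjusted p = 0.0498. The call of Inhba held in all 6 fits. Clock genes, whose RNA swings over the day, moved in both directions, with 2 of 18 tested up and 3 down. Nr1d1, which represses other clock genes, was at 0.571, 0.433 and 0.597 in the controls and 3.79, 12.7 and 4.84 on the HF/HS diet, HF/HS 2 the highest, and rose by 2.24 ± 0.39 (SE), adjusted p = 0.0293. Nr1d2 was at 4.49, 6.16 and 6.24 in the controls and 15.1, 28.7 and 12.2 on the HF/HS diet and rose by 1.49 ± 0.31 (SE), adjusted p = 0.0445. Cry1 was at 22.3, 27.8 and 24.5 in the controls and 6.44, 3.46 and 11.5 on the HF/HS diet and fell (-1.79 ± 0.37 (SE), adjusted p = 0.047), with HF/HS 2 the lowest. Per2 (-1.14 ± 0.21 (SE), adjusted p = 0.0282) and Cry2 (-0.62 ± 0.14 (SE), adjusted p = 0.0432) fell. None of these 5 calls held in all 6 fits, and collection time was not tested.

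Most genes of lipid-associated macrophages rose. Of 13 tested, 8 rose and none fell, and the median was 1.24, the highest of the lists with at least 6 tested members. Gpnmb (chr6:49036518-49058182), a membrane glycoprotein of lipid-laden macrophages, had values of 0.121, 0.255 and 0 in the controls and 10.6, 7.96 and 7.53 on the HF/HS diet. It was near 0 in every control and rose by 3.10 ± 0.15 (SE), adjusted p = 0.000239. Trem2, the lipid-sensing receptor that marks these cells, was at 0.715, 0.422 and 0.422 in the controls and 4.20, 2.87 and 2.85 on the HF/HS diet and rose by 1.49 ± 0.15 (SE), adjusted p = 0.00455. Mmp12, a macrophage elastase, was at 0.479, 0.826 and 0.315 in the controls and 19.3, 15.03 and 9.26 on the HF/HS diet and rose by 3.29 ± 0.26 (SE), adjusted p = 0.00323. Cd63 and Cd9, tetraspanins of lysosomes and of the cell surface, rose by 1.68 ± 0.19 (SE), adjusted p = 0.00693 and by 0.94 ± 0.08 (SE), adjusted p = 0.00238. Spp1, osteopontin, which bile duct cells make as well, was at 49.3, 51.9 and 46.2 in the controls and 138, 125 and 93.1 on the HF/HS diet and rose by 1.24 ± 0.14 (SE), adjusted p = 0.00681. Itgax, the integrin CD11c, rose by 0.83 ± 0.15 (SE), adjusted p = 0.0231, and Lpl, described above, belongs to the list. The calls of Cd63, Cd9, Gpnmb, Mmp12, Spp1 and Trem2 held in all 6 fits. Of the 8, Gpnmb, Itgax, Mmp12 and Trem2 met the filter on low values only through the HF/HS group. The summed level of the whole list of lipid-associated macrophage genes was 835 to 1526 in controls and 1128 to 1458 on the HF/HS diet, so the groups overlapped: Fabp5, at 815, 295 and 338 in the controls and 159, 228 and 507 on the HF/HS diet, and Ctsd, at 476, 373 and 383 in the controls and 523, 549 and 609 on the HF/HS diet, have the highest values of the list and did not pass.

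**Figure D4:**
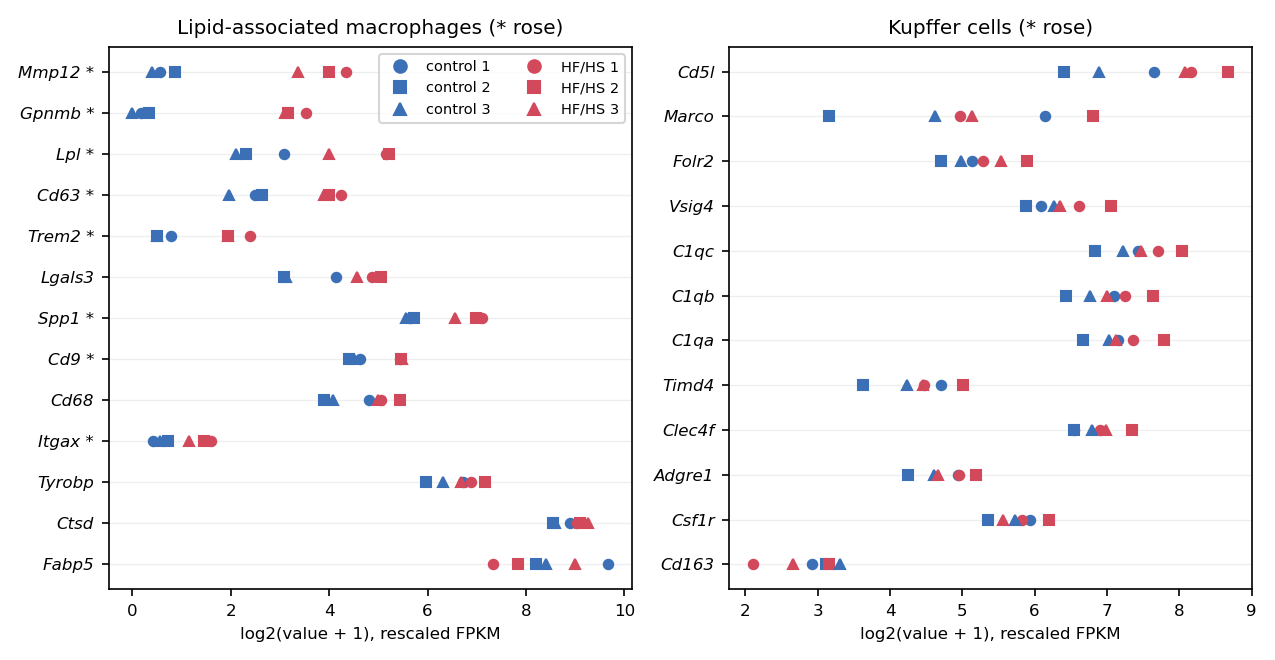
Tested genes of lipid-associated macrophages (left) and Kupffer cells (right) by library, as log2(value + 1), with controls in blue, HF/HS in red, the library number as the symbol and a star at genes that rose. Gpnmb, Mmp12, Trem2 and Cd63 show groups far apart. Of the 12 Kupffer cell genes, 5 were higher in every HF/HS library, against 15.8% of all genes tested. The groups overlap at others, such as Marco, at 69.4, 7.88 and 23.5 in the controls and 30.2, 111 and 33.9 on the HF/HS diet.

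Kupffer cell genes did not pass the test. Of 12 tested, none rose or fell, the median was 0.50, and 5 were higher in every HF/HS library, against 15.8% of all genes tested. Their summed level was 644 to 1035 in controls and 1097 to 1698 on the HF/HS diet. Clec4f, a lectin specific to Kupffer cells, was at 92.5, 92.5 and 110.5 in the controls and 118.3, 162 and 126 on the HF/HS diet (0.45 ± 0.13 (SE), adjusted p = 0.0859), and Cd5l at 201, 83.9 and 117 in the controls and 286, 409 and 271 on the HF/HS diet (1.33 ± 0.34 (SE), adjusted p = 0.072). In whole liver, more cells of a type and more RNA per cell cannot be told apart. Among 6 tested monocyte genes, Cd14 (0.89 ± 0.15 (SE), adjusted p = 0.0218) and Chil3 (0.86 ± 0.15 (SE), adjusted p = 0.0246) rose. Of 7 tested genes of antigen presentation on MHC class II, H2-DMb1 rose (0.79 ± 0.17 (SE), adjusted p = 0.0391). Of 13 tested cytokine and adhesion genes, 3 rose: Il1rn, the interleukin-1 receptor antagonist, at 2.44, 1.69 and 1.63 in the controls and 8.61, 8.04 and 5.29 on the HF/HS diet (1.497 ± 0.19 (SE), adjusted p = 0.00867), Vcam1, an adhesion molecule for leukocytes (0.93 ± 0.13 (SE), adjusted p = 0.0114), and the chemokine Cxcl16 (0.62 ± 0.13 (SE), adjusted p = 0.0362). None of these 6 calls held in all 6 fits. None of 4 tested lymphocyte genes, 6 neutrophil genes, 5 rows of red blood cell genes, 13 endothelial genes or 30 interferon response genes passed. Their medians were 0.27, 0.46, 0.06, -0.01 and 0.20. Of 21 tested acute phase genes, Orm1 (-0.45 ± 0.10 (SE), adjusted p = 0.0389) and Itih4 (-0.47 ± 0.11 (SE), adjusted p = 0.0457) fell, with a median of -0.45. Neither call held in all 6 fits.

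Of 19 tested genes of stellate cells and matrix, 6 rose and none fell, with a median of 0.31. Col3a1, a fibrillar collagen, had values of 11.2, 11.7 and 9.85 in the controls and 24.2, 20.3 and 19.9 on the HF/HS diet and rose by 0.91 ± 0.10 (SE), adjusted p = 0.00557, a call held in all 6 fits. Col1a2 (0.50 ± 0.12 (SE), adjusted p = 0.0447), Col4a1 (0.60 ± 0.12 (SE), adjusted p = 0.0298), Col4a2 (0.55 ± 0.12 (SE), adjusted p = 0.036), Col5a2 (0.44 ± 0.09 (SE), adjusted p = 0.0331) and the microfibril gene Fbn1 (0.49 ± 0.11 (SE), adjusted p = 0.0436) rose. The summed level of the list was 286 to 343 in controls and 299.8 to 351 on the HF/HS diet. Col1a1 was at 0.606, 0.976 and 0.632 in the controls and 1.80, 1.24 and 1.43 on the HF/HS diet and did not pass (0.52 ± 0.13 (SE), adjusted p = 0.0594). Of 8 tested genes of fetal liver and injury, 5 rose and none fell. Of the 5, Adam11, H19 and Sox4 met the filter on low values only through the HF/HS group, so this count favours rises. Ly6d was among the 5. The others were Adam11, at 0.592, 0.361 and 0.564 in the controls and 2.83, 3.46 and 1.63 on the HF/HS diet (1.24 ± 0.20 (SE), adjusted p = 0.0176), Cdkn1a, a brake on the cell cycle, at 12.01, 8.71 and 8.15 in the controls and 26.6, 15.8 and 20.8 on the HF/HS diet (1.04 ± 0.21 (SE), adjusted p = 0.0364), Sox4 (0.69 ± 0.11 (SE), adjusted p = 0.017) and H19 (0.81 ± 0.18 (SE), adjusted p = 0.0433). Of 16 tested genes of cell division, the replication gene Mcm4 fell (-0.70 ± 0.14 (SE), adjusted p = 0.0298), and the median was -0.50. The related Mcm6 was at 27.7, 14.7 and 10.97 in the controls and 2.66, 5.58 and 5.19 on the HF/HS diet and missed the threshold (-1.73 ± 0.39 (SE), adjusted p = 0.0553). None of these calls of matrix, injury and cell division genes other than that of Col3a1 held in all 6 fits.

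The remaining lists held few calls, and of these that of Spp1 alone held in all 6 fits. Of 19 tested genes of endoplasmic reticulum stress and the ATF4 response, Atf3 rose (1.01 ± 0.18 (SE), adjusted p = 0.0257), with a median of -0.32. None of 12 tested genes of iron and metallothioneins passed, with a median of -0.08. Of 14 pericentral genes, Slc13a3 rose (0.61 ± 0.13 (SE), adjusted p = 0.0342). Of 9 periportal genes, Hsd17b13 rose, and Gls2 and Cdh1 (-0.62 ± 0.13 (SE), adjusted p = 0.0331) fell. Of 11 tested hepatocyte markers, Cps1 and Serpina1c fell, the second at 5031, 6366 and 6169.9 in the controls and 3491, 3326 and 2859 on the HF/HS diet (-0.86 ± 0.13 (SE), adjusted p = 0.0157), and the median was 0.05. Of 9 tested RNAs listed as mostly lacking a poly(A) tail, Neat1 rose (0.82 ± 0.16 (SE), adjusted p = 0.0298). The 1 tested marker of bile duct was Spp1, the 1 of pancreas was Cela1, which fell (-0.49 ± 0.10 (SE), adjusted p = 0.0355), and neither of 2 tested fat cell genes passed.

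The labels pair these females with males of the same strain, so the effect of the diet can be tested for a difference by sex. The fit of 12 libraries covered the same 11949 genes, chosen by their mean in CC032 females alone, so genes below it could not be called. In this fit, 310 genes were called in males (2.59%), 146 up (1.22%) and 164 down (1.37%). The female calls set beside them come from the fit of 6 libraries, so the counts of the sexes rest on different spreads. In both sexes 51 genes rose (9.51% of the female and 34.9% of the male rises) and 35 fell (7.83% of the female and 21.3% of the male falls), and 9 were called in opposite directions. The difference itself was called at 146 genes (1.22%), with a more positive effect in females at 91 (0.762%) and a more negative one at 55 (0.46%). Among the genes with the lowest p, Pglyrp2, a secreted peptidoglycan amidase, had values of 60.4, 60.7 and 56.5 in the controls and 101, 94.3 and 96.9 on the HF/HS diet in females, and 80.3, 108 and 98.7 in male controls and 60.04, 54.2 and 53.7 in males on the HF/HS diet. It rose in females and fell in males, a difference of 1.46 ± 0.14 (SE; adjusted p = 0.0012). Ociad2 had values of 3.08, 3.49 and 3.49 in the controls and 10.4, 9.53 and 11.3 on the HF/HS diet in females, and 22.1, 24.9 and 24.1 in male controls and 21.1, 15.9 and 13.1 in males on the HF/HS diet. The difference was 1.89 ± 0.19 (SE; adjusted p = 0.00229). Eps8l2 and Micu2, a gatekeeper of mitochondrial calcium uptake, had differences of 1.11 and 1.04 (adjusted p = 0.00805 and 0.00823). On the other side were Camkk2, a kinase upstream of AMPK (-0.98), Aspa (-0.88), Etv6 (-0.71), Acmsd (-1.80) and Hsd3b1 (-1.69), with adjusted p values from 0.0126 to 0.0155. Hsd3b1 met the filter on low values only through the female controls, so its test favours a difference. Acmsd had values of 10.7, 7.98 and 8.93 in male controls and 9.58, 10.6 and 12.2 in males on the HF/HS diet, and its groups overlapped there.

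Within the gene groups above, the sexes differed at few members. Gpnmb had values of 0.443, 1.78 and 0.302 in male controls and 1.88, 1.36 and 0.855 in males on the HF/HS diet, all lower than the female HF/HS libraries, and a difference of 2.67 ± 0.38 (SE; adjusted p = 0.0155). Gpnmb met the filter on low values only through the female HF/HS group, so this test favours a difference. Its call was lost without female control 3, without male HF/HS 2 and in a fit that paired libraries by number. For Trem2 and Mmp12 the differences of 1.28 and 2.85 did not pass (adjusted p = 0.11 and 0.0739). Elovl3 had values of 471, 408 and 525 in male controls and 467, 374 and 280.0 in males on the HF/HS diet, and its difference was 2.57 (adjusted p = 0.0185). Hsd17b13, which rose in females, fell in males, with values of 933, 1213 and 962 in male controls and 704, 592 and 499.7 in males on the HF/HS diet (difference 1.24, adjusted p = 0.0167). Soat2 (0.86, 0.0167), Ppara (0.89, 0.0167) and Gpx4 (0.65, 0.0455) had a more positive effect in females, given here as the difference and its adjusted p. Gls2 (-1.41, 0.041) and Asl (-0.995, 0.0347) had a more negative one. Under 20 alternative settings, described at the end, the call of Gpx4 was lost in 14, Gls2 in 12 and Asl in 11. Those of Elovl3, Soat2 and Hsd17b13 were lost in 5, 4 and 3. No cholesterol synthesis gene differed between the sexes in this test: their median effect was -2.01 in males and -1.21 in females, and Cyp51 differed by 1.07 ± 0.73 (SE; adjusted p = 0.48). Cidec was at 9.74, 21.999 and 1.77 in male controls and 65.0, 46.3 and 26.7 in males on the HF/HS diet, with a wide spread, and its difference of 2.002 ± 0.94 (SE) did not pass (adjusted p = 0.31). The count of differences ranged from 15 without male HF/HS 2 to 315 without male HF/HS 1.

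A last comparison set the diet effect in CC032 females against the mean effect in females of the 7 other strains. It differed at 306 genes (2.56%), more positive in CC032 at 186 (1.56%) and more negative at 120 (1%). Cidec had the clearest difference among the lipid genes: its effect in the other strains lay between -0.23 and 0.87, and CC032 exceeded their mean by 4.13 ± 0.28 (SE; adjusted p = 9.41e-13). Plin4 exceeded it by 2.76 (adjusted p = 0.0126), Lpl by 1.97 (0.00246) and Slc27a4 by 0.55 (0.000863). For Plin2 the difference of 0.59 did not pass (0.47). Of the lipid-associated macrophage genes, 5 of 13 tested differed. Gpnmb rose in CC032 by 3.10 and had effects of 0.05 to 1.09 elsewhere, a difference of 2.54 ± 0.39 (SE; adjusted p = 6.72e-05). The differences of Mmp12, Trem2, Cd63 and Lpl were 2.66, 1.22, 1.398 and 1.97. Ang3 had effects of at most 0.30 in the other strains, a difference of 2.63 (adjusted p = 1.7e-15). Its relative Ang4 (chr14:51763892-51773590) was at 0, 0.128 and 0 in the controls and 2.37, 1.81 and 2.41 on the HF/HS diet, and the receptor tyrosine kinase Ephb2 at 0.117, 0.162 and 0.149 in the controls and 1.69, 2.08 and 1.88 on the HF/HS diet. Both genes passed the filter on low values only through their HF/HS libraries and fell below it without any 1 of these, so no p-value of theirs is given. Their differences are only listed with the flagged results below and are no support for a difference between strains. Their effects in the other strains were at most 0.38 and 0.12. Fam83a exceeded the other strains by 2.48 (9.41e-13). Of the genes tested here, Ang3, Fam83a, Gpnmb, Mmp12 and Trem2 met the filter on low values only through the CC032 HF/HS group. Ly6f, given next, met it only through the CC032 controls, so the tests of these genes favour a difference. More negative in CC032 were Ly6f (-2.60, 3.05e-10), Avpr1a (-1.31, 0.000216), Cmah, which makes a sialic acid (-1.21, 7.48e-05), the protease inhibitor Reck (-1.03, 1.22e-05), Crybg3 (-0.73, 3.39e-05) and F7, coagulation factor VII, at 175, 169 and 179 in the controls and 92.0, 105 and 96.5 on the HF/HS diet (-0.71, 0.000138).

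**Figure D5:**
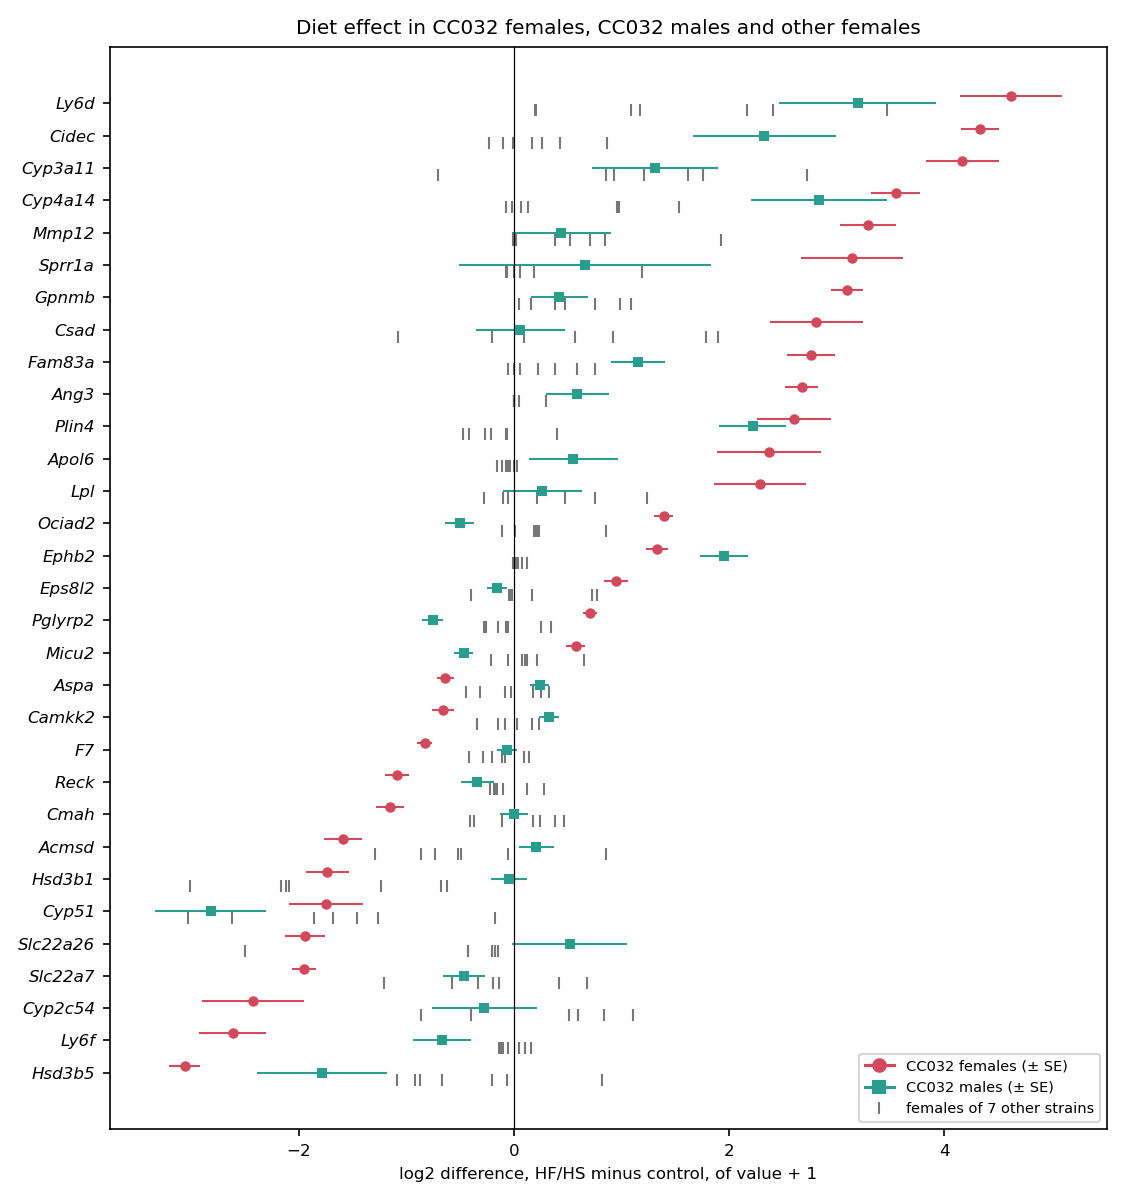
Diet effect (HF/HS minus control, log2 of value + 1) of 31 named genes in CC032 females (red circles, with SE), CC032 males (green squares, with SE) and females of each of the 7 other strains (grey marks). Cidec, Ang3, Ly6f and Fam83a lie outside the range of the other strains, while Cyp51 and Hsd3b1 lie within it. Of these, Ang3 and Fam83a met the filter on low values only through the CC032 HF/HS group. Ly6f and Hsd3b1 met it only through the CC032 controls, so the choice of these genes favours a difference.

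No cholesterol synthesis gene differed from the other strains, where the median effect was -1.05: Cyp51 had effects of -3.03 to -0.18 there and -1.75 in CC032, a difference of -0.02 ± 0.48 (SE; adjusted p = 0.99). The PPAR-alpha targets, with a median effect of 0.09 elsewhere, held no difference that passed either. For Cyp4a14 the difference of 3.03 ± 1.10 (SE) had an adjusted p of 0.16. Cyp3a11 rose further in CC032 than the mean of the others (2.96, adjusted p = 0.0287), and Cyp2c54 and Cyp7b1 fell where their mean effects elsewhere were 0.34 and 0.08 (adjusted p = 0.00308 and 0.0106). Hsd3b1 had effects of -3.01 to -0.62 in the other strains, below 0 in all 7. CC003 was left out for its high library totals, and CC060 for its low sum of RNAs listed as mostly non-polyadenylated. The count of differences was 162 where both were added, and between 129 and 326 with each CC032 library left out.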

How the data were processed

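Liver RNA of CC032 females was compared between 3 control and 3 HF/HS libraries, grouped by the labels. The submitters' processing notes list the build mm10 and the programs Cufflinks 2.2.1, TopHat2 2.1.1 and Bowtie2 2.2.5.0, without saying what each did. The deposited values are FPKM-like, and the authors rescaled them: the 75th percentile lay between 9.983 and 10.0 in all 120 libraries. How they were scaled, which gene annotation was used and how reads were divided between similar genes are not given in the sources used here. This table holds no read counts, so no counting interval is given, and the relative depth came from the steps between low values (under 0.3). Per the labels' protocols, both a ribosomal depletion kit and an mRNA kit were used, without saying for which library. Library totals were 982567 to 1113869, and 32.4% to 34.6% of the 24883 rows were at 0. Spearman correlations were 0.964 to 0.981 within groups and 0.953 to 0.961 between them.

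The test covered the 11949 genes whose mean value reached 1 in these 6 libraries, and 1 row that lacks a value did not enter. Values were used as log2(value + 1) with limma 3.58.1 in R 4.3.3 (a prior with a trend, robust), two-sided, with Benjamini-Hochberg adjustment over all genes tested. The sex difference used 12 libraries with 1 mean for each group. The strain difference used 46 libraries of 8 strains. Both differences were tested on the same 11949 genes, chosen by their mean in CC032 females alone. In CC040 females, control 3 and HF/HS 1 were equal in all 24883 rows, and both were left out. CC003, whose female libraries summed to at least 3192062, was left out as well. So was CC060, whose RNAs listed as mostly lacking a poly(A) tail summed to at most 754 against at least 53308 in the 8 strains. The limma fits of the diet effect and of the sex difference were tested on simulated data.

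Members and lists were chosen with earlier results of these data known. Genes were named by a rule: the 15 largest rises and falls whose groups did not overlap, up to 5 members of each list with the lowest p, and the 5 lowest p per direction of the sex and strain differences. Outside the lists it passed over repeated symbols, unnamed gene models, small RNAs and genes listed at 0 beside a value above 5 in the same group. Other called list members, and Sqle, Cyp7a1, Cpt1a, Marco, Fabp5, Ctsd and Col1a1, were named after their values were seen. Some genes that the rule or the lists hold are not reported here, though they stand in the counts. Coordinates are those of the table, counted from 1. Promoters came from RefSeq's GRCm38.p6 table, in which 8909 of 11803 tested genes with an unrepeated symbol had an entry. Control and HF/HS libraries share the numbers 1 to 3, but same-numbered libraries of CC032 did not deviate together in either sex, so the main fits used no block. This cannot exclude that the numbers mark pairs, and fewer genes were called with a block.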

Additional observations from a re-analysis of the deposited data

Results flagged for a closer look

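At 28 of the genes named, the diet effect of CC032 females differed from that of CC032 males by the test of the difference itself (adjusted p under 0.05, limma, 12 libraries). The values are the female minus the male effect on the log2 scale. The effect was more positive in females for Gpnmb (2.67), Elovl3 (2.57), Ang3 (2.09), Ociad2 (1.89), Oasl1 (1.68), Pglyrp2 (1.46), Ang4 (1.25), Hsd17b13 (1.24), Eps8l2 (1.11), Micu2 (1.04), Ppara (0.887), Soat2 (0.858), Ces1f (0.814), Sox4 (0.69) and Gpx4 (0.65). It was more negative for Cfd (-5.3), Ly6f (-1.95), Acmsd (-1.8), Hsd3b1 (-1.69), Slc22a7 (-1.49), Gls2 (-1.41), Cmah (-1.15), Asl (-0.995), Camkk2 (-0.983), Fbp1 (-0.879), Aspa (-0.877), F7 (-0.768) and Etv6 (-0.709). Cfd, the fat cell protease adipsin, had values of 2.43, 3.56 and 2.52 in male controls and 126, 283 and 402 in males on the HF/HS diet, the highest in males on the HF/HS diet. In females Cfd was at 3.27, 1.06 and 0 in the controls and 3.94, 2.02 and 1.55 on the HF/HS diet and did not pass. Oasl1 and Fbp1 did not pass in females either (adjusted p = 0.13 and 0.058). Ang4 met the filter on low values only through its female HF/HS libraries and fell below it without any 1 of these. Its entry is therefore no support for a difference. Ang3, Gpnmb and Sox4 met the filter only through the female HF/HS group too, and Hsd3b1 and Ly6f only through the female controls. The tests of all these genes favour a difference.

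At 45 of the genes named, the effect in CC032 females differed from the mean effect in females of 7 other strains (adjusted p under 0.05, limma, 46 libraries). The values are the effect in CC032 minus that mean on the log2 scale. More positive were Cidec (4.13), Ly6d (3.09), Cyp3a11 (2.96), Sprr1a (2.95), Plin4 (2.76), Mmp12 (2.66), Ang3 (2.63), Gpnmb (2.54), Fam83a (2.48), Apol6 (2.43), Csad (2.24), Lpl (1.97), Retn (1.77), Nr1d2 (1.55), Ang4 (1.54), Cd63 (1.4), Ephb2 (1.29), Trem2 (1.22), Ociad2 (1.16), Mthfd1l (0.817), Pglyrp2 (0.736), Soat2 (0.704), Srxn1 (0.66), Slc27a4 (0.552) and Gpx4 (0.485). More negative were Cyp2c54 (-2.77), Hsd3b5 (-2.63), Ly6f (-2.6), Mcm6 (-2), Mcm5 (-1.84), Slc22a7 (-1.76), Tgm1 (-1.61), Cry1 (-1.47), Tspyl4 (-1.44), Avpr1a (-1.31), Cmah (-1.21), Cyp7b1 (-1.17), Acmsd (-1.15), Reck (-1.03), Gls2 (-0.953), Mcm4 (-0.918), Crybg3 (-0.731), F7 (-0.706), Pcna (-0.597) and Apom (-0.552). Ang4 and Ephb2 met the filter on low values only through their HF/HS libraries and fell below it without any 1 of these. Their entries are therefore no support for a difference. Ang3, Fam83a, Gpnmb, Mmp12, Mthfd1l, Retn, Sprr1a and Trem2 met the filter only through the HF/HS group too. Hsd3b5 and Ly6f met it only through the controls, so the tests of all these genes favour a difference. Mcm5, Mcm6 and Pcna, genes of DNA replication, did not pass the diet test in CC032 females alone (adjusted p = 0.0804, 0.0553 and 0.0713), nor did Retn (adjusted p = 0.15), at 1.07, 0.491 and 0.190 in the controls and 2.22, 1.80 and 10.004 on the HF/HS diet.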

How the results depend on the processing

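For the diet effect in CC032 females, the 983 calls became 323 with the replicate block, 605 with a spread shared over 40 groups and 1987 with library weights. They ranged from 142 to 1200 with each library left out. Other pseudocounts, filters, quantile normalization, a prior without trend, a spread shared with the males and the removal of genes listed at 0 gave 663 to 1285. For the sex difference of the diet effect in CC032, the 146 calls became 10 with the replicate block, ranged from 15 to 315 with each of 12 libraries left out, and were 99 to 154 under the other alternatives. For the strain difference of the diet effect in females, the 306 calls became 197 with a mean of at least 5 and 162 with 9 other strains, ranged from 129 to 326 with each CC032 female library left out, and from 206 to 442 with each other strain left out. The replicate block gave 217, and the remaining alternatives 243 to 367. Same-numbered libraries of CC032 females had correlations of their deviations of -0.144, -0.104 and -0.149, and those of CC032 males -0.063 to 0.0111. Female libraries of unlike number had 0.0235 to 0.0999. These correlations cannot exclude that the numbers mark pairs. Among 6 other strains with all 3 pairs, every pair was over 0.1 in CC041 alone. Called genes named by the rule kept their direction under every alternative that gave them a value, and 31 of 144 named calls of the diet effect, 4 of 27 of the sex difference and 21 of 45 of the strain difference held under all of these, Mup7 among them each time although it was listed at 0 in all female controls. Apart from fewer libraries or other genes tested, the cause of these changes was not tested. Depth limits genes with values under 1 most, since the 6 libraries differed up to 1.12 against 0.71 in relative depth.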

Other observations

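Major urinary proteins (Mup), a cluster of near-identical genes that the liver secretes in large amounts, had an uneven pattern of zeros. Of 20 tested Mup rows, 14 were listed at 0 in all 6 CC032 male libraries, while Mup3 had values of 16953, 10414 and 17158 in male controls and 10805, 7881 and 5942 in males on the HF/HS diet. In females, Mup7 and 1 row each of Mup2 and Mup15 were listed at 0 in all 3 controls and were high in all 3 HF/HS libraries, with 711, 829.6 and 609 for Mup7. These rows may be failed estimates, and no fold is given for them. A further 4 rows were listed at 0 in 1 or 2 controls, and no row was at 0 in any HF/HS library. Of the 13 Mup rows above 0 in all 6 female libraries, 4 fell and none rose: Mup13, Mup17, Mup19 and Mup21. The rows left out for a 0 had it in controls only, so this count favours falls. Over all genes tested, 3.74% fell. The summed value of the 20 rows was 25259, 34193 and 33817 in the controls and 29484, 39509 and 32934 on the HF/HS diet. The sums of the 2 groups thus overlapped, and how reads were divided between these rows was not tested. Mup19 had values of 6485, 4100.4 and 4102 in the controls and 2389, 2969.8 and 2278 on the HF/HS diet (-0.92 ± 0.20 (SE), adjusted p = 0.0413), Mup17 of 953, 644 and 581 in the controls and 267, 289 and 327 on the HF/HS diet (-1.27 ± 0.19 (SE), adjusted p = 0.0162) and Mup13 of 2624, 1921 and 2550.2 in the controls and 1504, 1688 and 1395 on the HF/HS diet (-0.62 ± 0.14 (SE), adjusted p = 0.0455).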
